A study of Gallus gallus with 6 samples.

Results

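The hearing organ of the chick, the basilar papilla (BP), was compared between chicks at 48 hrs after gentamicin and untreated chicks of the same age. Gentamicin, an aminoglycoside, is toxic to hair cells (HCs), mainly those at the basal end, and only the basal part of the BP was taken. Both groups were wild type chicks of 12 to 16 days. Each group had 2 arrays (GeneChip Chicken Genome Array), and each array was hybridized with RNA from a pool of several papillae, so that single chicks were not measured. These 4 arrays belong to a series of 6, of which the other 2 are from 72 hrs after gentamicin. The compared features were the chicken probe sets (groups of short probes for 1 transcript) with a mean log2 intensity over 7 on the 6 arrays. They were 9319 of the 37693 chicken probe sets and of 38535 probe sets in all, and 7500 of them carry 1 gene symbol. The last probe set kept and the first left out both had a mean of 7.0, with 274 probe sets within 0.1 above this limit and 292 within 0.1 below it. With a gene given by its brightest probe set, 5748 of 13008 genes passed.

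HCs of the BP turn sound into release of transmitter, by means of a bundle of actin-filled stereocilia at the apex and ribbon synapses at the base. They stand among supporting cells (SCs), which hold the epithelium together, secrete the tectorial membrane and, in birds, give rise to new HCs after damage, by division or by direct conversion. Cells of an injured epithelium generally express immediate early genes and chaperones, and the lateral inhibition by Notch that keeps SCs from becoming HCs is relieved when HCs are lost.

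On the 6 arrays the median log2 intensity lay between 4.73 and 4.92, between 51.7% and 54.4% of the values were under 32 and the median over the 9319 probe sets was between 8.82 and 8.92. The HC and SC genes of a BP were covered in part. Of the HC transcription factors listed, 6 were found by symbol and 6 were not, and 3 passed the limit of 7. For hair bundle genes 30 were found, 10 were not and 19 passed, and for HC synapse and channel genes 31, 7 and 18. For SC genes these counts were 36, 6 and 23. Of 28 macrophage genes 1 passed the limit of 7 and of 6 thrombocyte genes 0 did. The gap between the 3′ and the 5′ probe sets of a reference gene, a measure that widens with RNA degradation, was compared for 3 genes. For actin it was 3.97 and 3.93 at 48 hrs and 3.51 and 3.62 in controls, so that the 48 hr arrays were alike and both had wider gaps than the controls. For GAPDH the gap on the log2 scale was 3.0 and 4.97 at 48 hrs (replicates 1 and 2) and 2.46 and 3.31 in controls, so that the groups overlapped. For EF1A it was 1.95 and 3.01 at 48 hrs and 1.73 and 1.85 in controls, again wider on both 48 hr arrays. Of the 4 arrays, the replicate 2 array of 48 hrs had the widest gap in GAPDH and EF1A. The part of this in the results below was not tested.

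The question of the comparison is which genes stand apart in the BP when most dying HCs have left it. To keep the replicates apart, the log2 fold change was taken within each replicate number, the 48 hr array minus the control array of that number. Its SD over the 9319 probe sets was 0.32 in replicate 1 and 0.39 in replicate 2. The fold changes of the pairs correlated with r = 0.190 (Spearman's rho 0.140, across probe sets, which are not independent and come from 4 arrays), and 54.9% of the probe sets had the same sign in both. Of the sums of squares over the 4 arrays, 28.9% went with the treatment, 51.3% with the replicate number and 19.8% with neither. The arrays of the same number were the most alike, with r = 0.975 between the 48 hr and the control array of replicate 1 and r = 0.962 for replicate 2, against 0.954 between the 48 hr arrays and 0.954 between the control arrays. More of the variation thus went with the number of the pools than with 48 hrs against control.

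**Figure D1:**
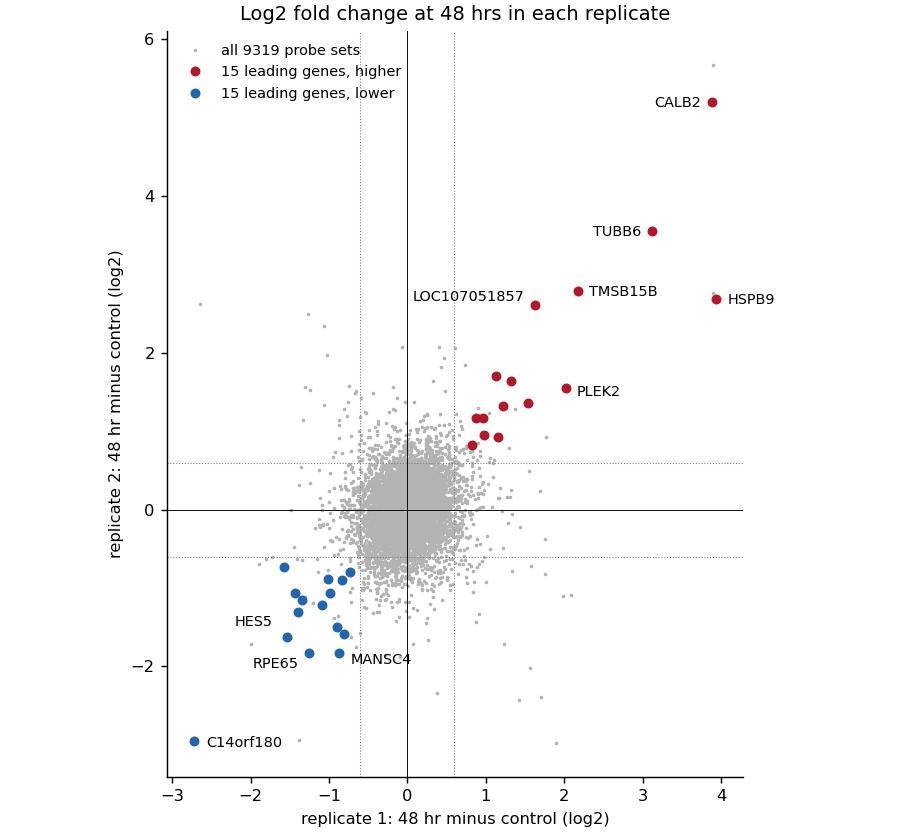
Log2 fold change at 48 hrs (48 hr array minus control array of the same number) in replicate 1 (x axis) and replicate 2 (y axis) for 9319 probe sets in grey. The 15 leading genes higher (red) and the 15 lower (blue) at 48 hrs lie outside the dense cloud in the corners of equal sign, dotted lines stand at 0.6 and -0.6, and 6 higher and 4 lower genes are named.

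With limma fitted to all 6 arrays and Benjamini-Hochberg adjustment over 38382 probe sets, 0 (0%) differed at 48 hrs with an adjusted p under 0.05, while 1039 had an unadjusted p under 0.05. Among the 9319 these were 101 higher and 125 lower. The smallest adjusted p was 0.13. Groups of 2 cannot reach the threshold in an exact permutation test either, since its smallest two-sided p is 0.33. The data are therefore described below by the values of the 4 arrays. A probe set is called separate where both 48 hr values lay beyond both control values, and this is a description and not a test. Of the 9319 probe sets 1391 were separate and higher at 48 hrs (14.9%) and 1306 were separate and lower (14%). The median gap between the groups of these was 0.10 on the log2 scale, and in 43 higher and 47 lower probe sets it was over 0.5.

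By a fold rule, a log2 fold change over 0.6 or under -0.6, 247 probe sets were higher and 229 lower in replicate 1, and 409 were higher and 454 lower in replicate 2. In both replicates together 53 (0.569%) were higher and 43 (0.461%) lower. A further 31 probe sets were higher by this rule in replicate 1 and lower in replicate 2, and 28 the reverse. Between the 48 hr arrays themselves 1238 probe sets differed by over 0.6, and between the control arrays 1127 did. Over genes, 31 (0.539%) were higher and 26 (0.452%) lower by the rule in both replicates, and 56 of these 57 were also separate. Separate genes were 870 higher (15.1%) and 778 lower (13.5%), which is the background for the gene families below.

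Brighter probe sets were more often separate and lower than higher at 48 hrs. Among those with a mean log2 over 11, 11.3% were higher and 19% lower, whereas among those from 7 to 8, 15.8% were higher and 12.6% lower. This lean depended on the scaling. After quantile normalization the brightest were higher in 15.3% and lower in 15.4%, and after setting the array medians equal in 7.71% and 24.3%.

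The genes that led the higher side were a calcium-binding protein of sensory cells and neurons, cytoskeletal proteins and a small heat shock protein. CALB2 encodes calretinin, an EF-hand protein that buffers calcium. Its log2 intensity was 10.65 and 11.05 at 48 hrs and 6.76 and 5.85 in controls (replicates 1 and 2, here and below). The log2 fold changes of 3.89 and 5.20 averaged 4.55 (standard error 0.55, adjusted p = 0.40 from limma), and another probe set of CALB2 gave 3.90 and 5.67. By the smaller of its replicate fold changes it was the first of the 5748 genes.

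TUBB6, a beta-tubulin, was at 9.15 and 8.53 at 48 hrs and at 6.03 and 4.97 in controls. HSPB9 belongs to the small heat shock proteins, which hold unfolding proteins in solution. It was at 11.25 and 10.64 at 48 hrs and at 7.31 and 7.96 in controls, and another of its probe sets gave log2 fold changes of 3.90 and 2.77. TMSB15B, a beta-thymosin that binds actin monomers, was at 9.66 and 8.68 at 48 hrs, against 7.48 and 5.89 in controls. The control arrays of TUBB6 and TMSB15B were over 1 log2 unit apart from each other, and the mean log2 fold changes of 3.34 and 2.48 had standard errors of 0.63 and 0.74. PLEK2, a pleckstrin that takes part in actin remodelling, was at 8.38 and 7.82 at 48 hrs and at 6.36 and 6.28 in controls. VIM, the intermediate filament protein vimentin, was at 8.45 and 8.08 at 48 hrs and at 7.49 and 6.91 in controls. TUBB6, TMSB15B, PLEK2 and VIM encode cytoskeletal or cytoskeleton-binding proteins, a grouping made after the leading genes were seen. As families, 13.5% of the actin, myosin and annexin genes and 18.2% of the tubulins and microtubule proteins were separate and higher, against 15.1% of all genes.

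Regulators of transcription, mRNA decay and the cell cycle formed the next group. EGR1, an immediate early zinc finger transcription factor, was at 11.18 and 11.06 at 48 hrs and at 9.96 and 9.75 in controls, and its log2 fold changes of 1.22 and 1.31 were matched by 1.37 and 1.29 in another probe set. GADD45G, a growth arrest and DNA damage inducible gene on the Z chromosome, was at 9.22 and 9.27 at 48 hrs and at 7.68 and 7.91 in controls, but another probe set over 7 gave 0.07 and -0.29. CCND3, a D-type cyclin that drives passage through G1, was at 10.74 and 11.39 at 48 hrs and at 9.41 and 9.75 in controls. In each of these genes the spread between the arrays of a group was under the gap between the groups. ZFP36L1, which binds AU-rich elements and destabilizes mRNAs, was at 8.03 and 8.08 at 48 hrs and at 7.21 and 7.25 in controls. CYR61, a secreted matricellular protein and known target of the YAP coactivator, was at 7.56 and 7.68 at 48 hrs and at 6.43 and 5.98 in controls.

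The other leading higher genes were LOC107051857, FAM69B, SLC16A8 and DTX3L. LOC107051857, which the sources used here do not describe further, was at 9.93 and 10.63 at 48 hrs and at 8.30 and 8.02 in controls (log2 fold change 2.12, standard error 0.27, adjusted p = 0.43 from limma). SLC16A8, a transporter of lactate and other monocarboxylates, was at 7.70 and 8.52 at 48 hrs and at 6.54 and 7.59 in controls. Its lower 48 hr value lay closer to its higher control value than in the other 14 genes. DTX3L, a ubiquitin ligase, was at 8.81 and 8.68 at 48 hrs and at 7.94 and 7.51 in controls. Over the 15 genes the mean log2 fold change was between 0.82 and 4.55. CALB2, TUBB6, TMSB15B, PLEK2 and CYR61 had control means under 7, so that they passed the limit of 7 only through the arrays after gentamicin.

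**Figure D2:**
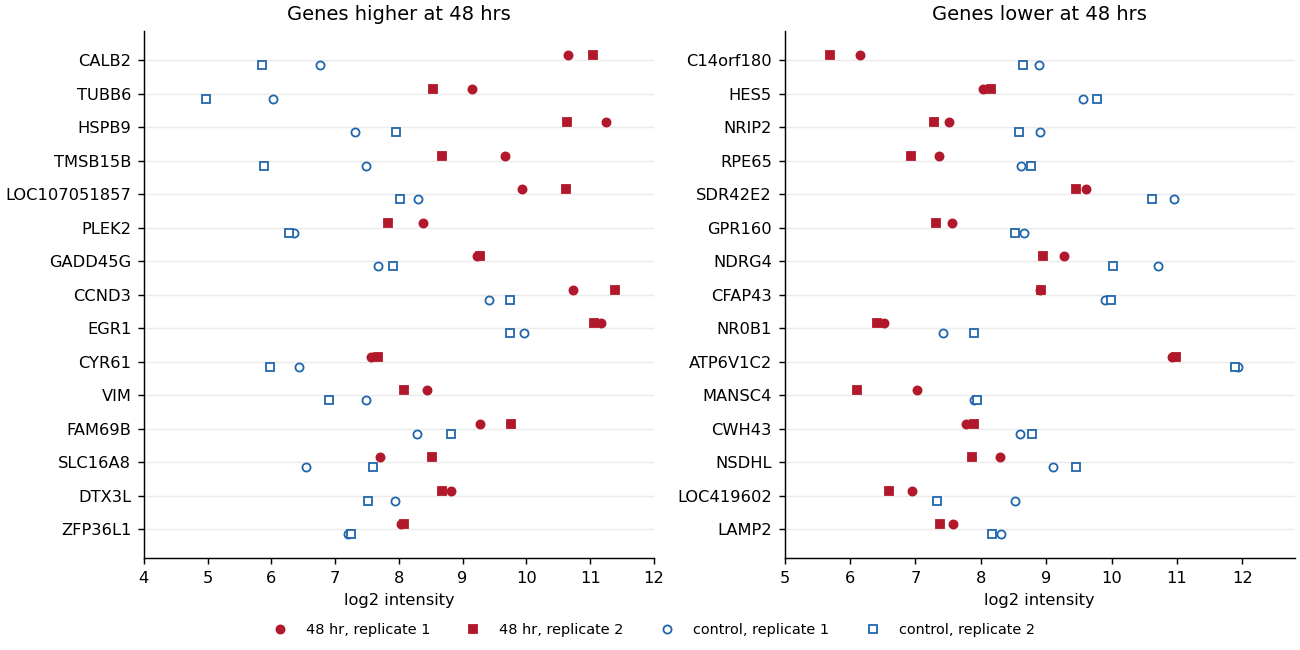
Log2 intensity (x axis) of the 15 leading genes higher (left) and the 15 lower (right) at 48 hrs, with filled red marks for the 48 hr arrays and open blue marks for the control arrays. In CALB2 the 48 hr arrays are at 10.65 and 11.05 and the controls at 6.76 and 5.85, and in C14orf180 the 48 hr arrays are at 6.16 and 5.69 and the controls at 8.89 and 8.65.

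The genes that led the lower side included regulators of transcription, enzymes, genes of the lysosome and CFAP43, a gene of the cilium. C14orf180, for which no function is given here, was at 6.16 and 5.69 at 48 hrs and at 8.89 and 8.65 in controls. Its log2 fold changes of -2.73 and -2.96 averaged -2.84 (standard error 0.27), and its adjusted p of 0.13 from limma was the smallest in the comparison. HES5, the bHLH repressor that Notch induces in SCs, was at 8.03 and 8.15 at 48 hrs and at 9.57 and 9.78 in controls. NRIP2, a nuclear receptor interacting protein, was at 7.52 and 7.28 at 48 hrs and at 8.91 and 8.59 in controls. NR0B1, an orphan nuclear receptor that represses transcription, was at 6.52 and 6.41 at 48 hrs and at 7.42 and 7.90 in controls. These 3 regulators were separate. The log2 fold changes of the replicates were close in HES5 (-1.54 and -1.63) and in NRIP2 (-1.39 and -1.31).

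Several of the lower genes encode enzymes. RPE65, the retinoid isomerase of the visual cycle, was at 7.37 and 6.94 at 48 hrs and at 8.62 and 8.77 in controls. SDR42E2, a short-chain dehydrogenase/reductase, was at 9.61 and 9.46 at 48 hrs and at 10.96 and 10.62 in controls. NSDHL, an enzyme of cholesterol synthesis, was at 8.29 and 7.87 at 48 hrs and at 9.11 and 9.45 in controls. RPE65 and NSDHL differed more in replicate 2 (-1.83 and -1.58) than in replicate 1 (-1.25 and -0.82). CWH43, which remodels the lipid of GPI anchors, was at 7.77 and 7.89 at 48 hrs and at 8.60 and 8.78 in controls.

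Genes of the lysosome and a gene of the cilium were among them as well. ATP6V1C2, a subunit of the V-ATPase that acidifies lysosomes and also pumps protons across the membrane of some epithelial cells, was at 10.92 and 10.99 at 48 hrs and at 11.94 and 11.88 in controls, and another probe set gave log2 fold changes of -0.53 and -0.67. LAMP2, a lysosomal membrane protein, was at 7.58 and 7.37 at 48 hrs and at 8.31 and 8.17 in controls, but 4 dimmer probe sets of LAMP2, all under 7, did not share this pattern. CFAP43, a protein of motile cilia and flagella, was at 8.91 and 8.92 at 48 hrs and at 9.90 and 9.99 in controls, and another probe set gave -0.94 and -1.38. The differences in ATP6V1C2 and CFAP43 thus held in more than 1 probe set. The family of intraflagellar transport and cilium genes, which does not hold CFAP43, was near the background. Of its 31 genes over 7, 5 (16.1%) were separate and higher and 4 (12.9%) lower, against 15.1% and 13.5% of all genes. GPR160, an orphan G protein-coupled receptor, NDRG4, of the N-Myc downstream regulated family, MANSC4 and LOC419602 complete the 15, whose mean log2 fold changes were between -2.84 and -0.76. C14orf180, NR0B1, MANSC4 and LOC419602 had 48 hr means under 7, so that they passed the limit of 7 only through their higher control values. Of the 30 leading genes, 6 had another probe set over 7, and in 5 of these it had the same sign and was separate, GADD45G being the exception.

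Gene families were read against the 15.1% of genes that were separate and higher and the 13.5% that were separate and lower. Heat shock proteins and chaperones, which keep other proteins folded, leaned the most to the higher side among the families with at least 10 genes over 7. Of 39 genes over 7, 16 (41.0%) were separate and higher at 48 hrs and 1 (2.56%) was lower, with median log2 fold changes of 0.15 in replicate 1 and 0.10 in replicate 2, against 0.01 and 0.00 over the 5748 genes. HSPB9 had by far the largest difference, followed by CRYAB. CRYAB, the small heat shock protein αB-crystallin, was at 8.14 and 7.63 at 48 hrs and at 7.06 and 7.03 in controls. BAG3, a co-chaperone of HSP70, was at 11.88 and 12.08 at 48 hrs and at 11.06 and 11.69 in controls. HSPA2, an HSP70, was at 12.31 and 12.26 at 48 hrs and at 11.50 and 12.02 in controls. BAG3 and HSPA2 were higher by 0.82 and 0.82 in replicate 1, but only by 0.39 and 0.24 in replicate 2. The separate genes reached from the cytosol to the mitochondrion and included HSP90AA1, HSP90AB1, HSPH1 and DNAJA1, the chaperonin subunits TCP1 and CCT7, the mitochondrial HSPD1, HSPE1 and TRAP1, and the heat shock factors HSF2 and HSF3. In HSF2, the factor measured at 9.16 and 9.28 at 48 hrs and at 8.93 and 8.93 in controls, the log2 fold changes were 0.23 and 0.35.

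Several genes for proteins that fold or clear other proteins in the endoplasmic reticulum were separate and lower. This grouping was made after the values were seen, and its members were not counted as a family. HSP90B1, the HSP90 of that compartment, was the 1 lower gene of the heat shock list, at 12.02 and 11.86 at 48 hrs and at 12.08 and 12.26 in controls. Of 28 genes of the unfolded protein and amino acid responses, 8 (28.6%) were lower and 3 (10.7%) higher. After quantile normalization 5 (17.9%) were lower, against 12.9% of all genes. CRELD2, a protein of the endoplasmic reticulum that its stress induces, was at 8.38 and 8.58 at 48 hrs and at 8.77 and 9.63 in controls. PDIA6, a disulfide isomerase, was at 10.52 and 10.61 at 48 hrs and at 10.81 and 11.20 in controls. PDIA3, PDIA4, CANX, SDF2L1, SEL1L and DNAJC3, which fold or clear proteins in this compartment, were the other lower ones. The 3 higher genes, SLC7A5, PSAT1 and SESN3, do not fold proteins: SLC7A5 carries amino acids into the cell, PSAT1 makes serine and SESN3 is a sestrin. SLC7A5 was at 8.36 and 8.47 at 48 hrs and at 7.79 and 8.12 in controls.

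**Figure D3:**
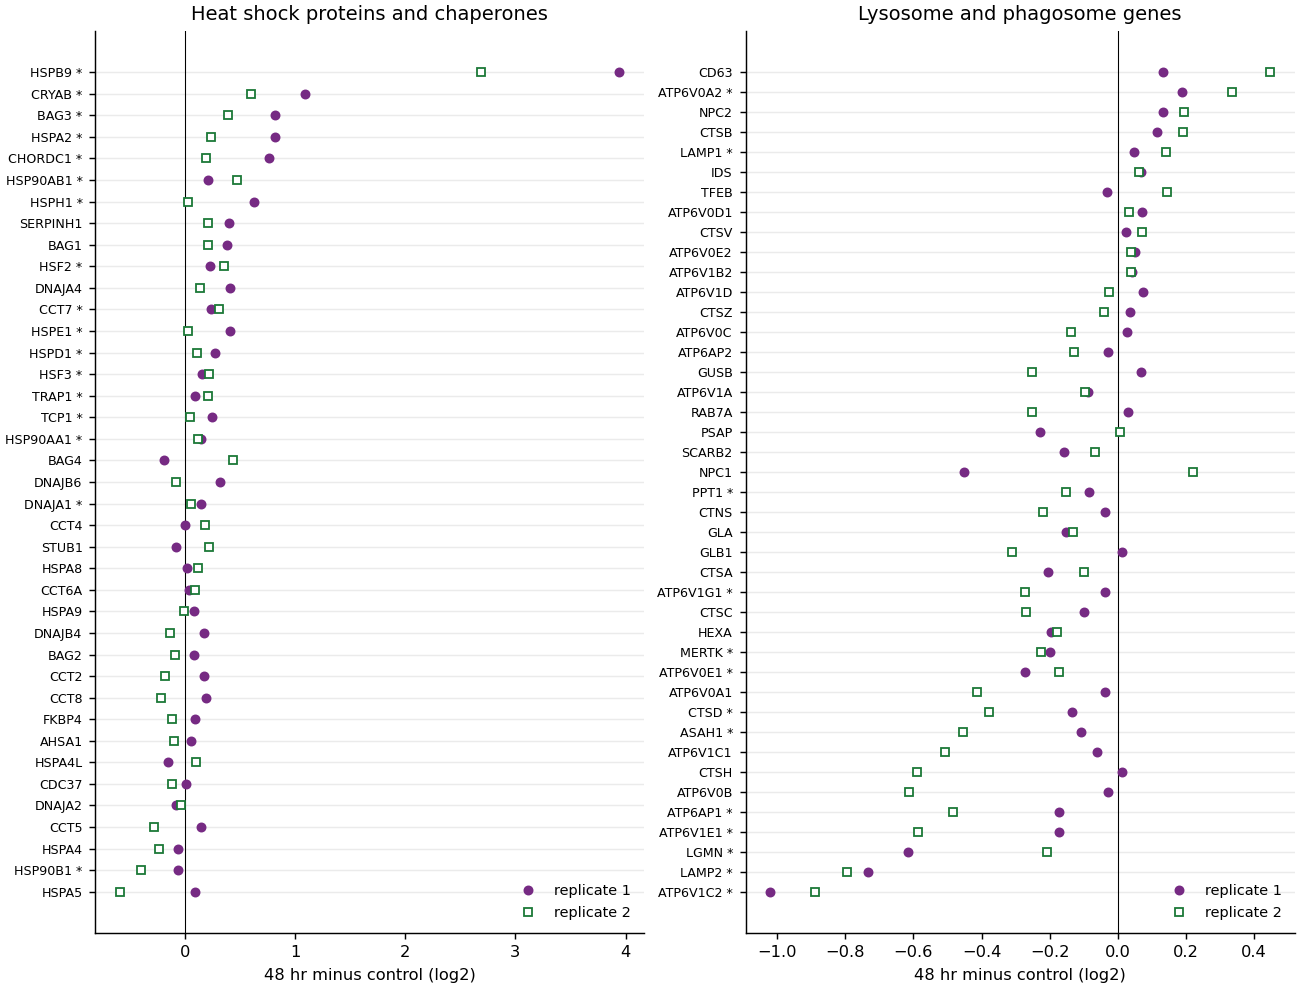
Log2 fold change at 48 hrs (48 hr array minus control array, x axis) in replicate 1 (filled circles) and replicate 2 (open squares) for heat shock and chaperone genes (left) and lysosome and phagosome genes (right) over 7, with a star where both 48 hr values lay beyond both controls. On the left 16 of 39 genes are separate and higher, led by HSPB9, and on the right 11 of 42 are separate and lower, with ATP6V1C2 at the foot.

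The list of immediate early and stress transcription factors, the first genes to be induced by growth signals and injury, showed few but larger differences. Of 25 genes over 7, 6 (24.0%) were separate and higher and 2 (8%) lower, and 5 of the 6 were over 0.6 in both replicates (EGR1, GADD45G, ZFP36L1, CEBPB and KLF6). GADD45G and ZFP36L1, which the list also held, are not transcription factors, and another GADD45G probe set over 7 did not share the difference. CEBPB, a leucine zipper factor of acute responses, was at 8.64 and 8.24 at 48 hrs and at 7.72 and 7.55 in controls. KLF6, a zinc finger factor, was at 9.16 and 9.12 at 48 hrs and at 8.53 and 8.36 in controls. The median log2 fold changes of the list, 0.02 and 0.04, were close to those of all genes. JUN, which pairs with FOS to form AP-1, was at 11.89 and 11.73 at 48 hrs and at 11.71 and 12.22 in controls, so that the groups overlapped. ATF3, a stress-induced factor whose mean was under the limit of 7, was at 7.05 and 5.28 at 48 hrs and at 3.50 and 3.20 in controls.

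Dimmer genes of G1 and S phase leaned to the higher side, and those of mitosis were mostly too dim to enter. Of 40 genes of G1 and S phase over 7, 10 (25%) were separate and higher and 2 (5%) lower, and the median log2 fold change was 0.07 in both replicates. Over a mean of 8 the lean was not seen, with 4 of 25 (16%) higher, against 14.7% of all genes over 8. RFC2, a subunit of the clamp loader of DNA replication, was at 7.70 and 7.81 at 48 hrs and at 7.18 and 7.05 in controls. RFC1, its largest subunit, was at 8.55 and 9.03 at 48 hrs and at 8.31 and 8.20 in controls. Beside these and CCND3, the higher genes were CCNE1, ORC2, CDT1, GMNN, RPA1, RBL2 and E2F5, whose mean log2 fold changes were between 0.13 and 0.36. The list held genes that act against each other: CDT1 licenses origins of replication and GMNN inhibits it, and RBL2 is a pocket protein that restrains entry into S phase. PCNA, the sliding clamp itself, was lower, at 7.94 and 7.69 at 48 hrs and at 8.16 and 8.41 in controls. E2F7, a repressor among the E2F factors, was at 8.41 and 8.55 at 48 hrs and at 8.91 and 9.01 in controls. Of 92 mitosis genes on the array only 12 were over 7, and 3 of these were higher and 1 lower. CDK1, the kinase that starts mitosis, was at 7.83 and 7.57 at 48 hrs and at 7.35 and 6.86 in controls.

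The lysosome and phagosome genes leaned to the lower side. Of 42 over 7, 11 (26.2%) were separate and lower and 2 (4.76%) higher, with median log2 fold changes of -0.04 in replicate 1 and -0.14 in replicate 2. The V-ATPase parts among the 11 were ATP6V1C2, ATP6V1E1, ATP6V1G1, ATP6V0E1 and ATP6AP1. ATP6V1E1 was at 10.33 and 10.25 at 48 hrs and at 10.51 and 10.84 in controls. LGMN, the protease legumain, was at 7.99 and 8.18 at 48 hrs and at 8.60 and 8.39 in controls. CTSD, the protease cathepsin D, was at 10.87 and 10.79 at 48 hrs and at 11.01 and 11.17 in controls. The others were LAMP2, ASAH1, PPT1 and MERTK, the last a receptor for the uptake of dying cells (7.73 and 7.55 at 48 hrs and 7.93 and 7.78 in controls). LAMP1 and the V-ATPase subunit ATP6V0A2 were the 2 higher ones. Several of the lower genes had larger differences in replicate 2, whose 48 hr array had wider 3′ to 5′ gaps than that of replicate 1 in GAPDH and EF1A but not in actin. For actin and EF1A both 48 hr arrays had wider gaps than both controls.

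Metabolic families showed few separate genes on the higher side. Of 24 genes of sterol and fatty acid synthesis 6 (25%) were lower and 2 (8.33%) higher. HMGCS1, an early enzyme of the mevalonate pathway, was at 9.93 and 9.90 at 48 hrs and at 10.09 and 10.86 in controls. MSMO1, INSIG1, STARD4 and FDFT1 were lower besides NSDHL, and ACACA and ELOVL6, which act in fatty acid synthesis, were the higher ones. Of 17 glycolysis genes 4 (23.5%) were lower and 0 higher. LDHA, lactate dehydrogenase A, was at 10.62 and 10.37 at 48 hrs and at 10.69 and 11.36 in controls. PGAM1, ENO1 and the glucose transporter SLC2A1 were lower by between 0.23 and 0.30 in the mean. Of 66 respiratory chain genes 11 (16.7%) were lower and 4 (6.06%) higher, but the medians had opposite signs in the replicates (0.04 and -0.18).

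Antioxidant enzymes were lower in 7 (16.7%) and higher in 3 (7.14%) of 42 genes. The lower ones included GSTA2, a glutathione transferase, at 11.14 and 10.76 at 48 hrs and at 11.49 and 11.41 in controls, and both subunits of the enzyme that limits glutathione synthesis, GCLC and GCLM. TXN2, mitochondrial thioredoxin, was at 10.33 and 10.42 at 48 hrs and at 10.82 and 10.83 in controls. GSR, glutathione reductase, was higher, at 7.57 and 7.53 at 48 hrs and at 7.31 and 7.13 in controls. The solute carriers, the largest family counted, were lower in 20 (21.1%) and higher in 7 (7.37%) of 95 genes. SLC25A33, a mitochondrial carrier of pyrimidine nucleotides, was at 7.85 and 7.62 at 48 hrs and at 8.36 and 8.47 in controls. SLC20A2, a phosphate transporter, was at 8.51 and 8.86 at 48 hrs and at 8.93 and 9.70 in controls.

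HC genes did not share a direction. In bulk samples fewer cells of a type and less RNA per cell cannot be told apart, so that a level speaks for the pool only. The summed intensity of 30 hair bundle and mechanotransduction genes was 14.68 and 14.84 at 48 hrs and 14.86 and 14.98 in controls (log2), and that of 31 genes of the HC synapse and channels was 14.46 and 14.53 at 48 hrs and 14.39 and 14.56 in controls. The sum of the bundle genes was lower at 48 hrs without overlap, by a margin of less than the spread within either group, and that of the synapse genes overlapped. For 6 HC transcription factors the sum was 13.03 and 13.15 at 48 hrs and 13.06 and 13.11 in controls. SC genes summed to 15.77 and 15.85 at 48 hrs and to 15.88 and 15.85 in controls.

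Within the hair bundle list, 6 (31.6%) of 19 genes over 7 were separate and lower and 4 (21.1%) were separate and higher. SMPX, a small protein of the cytoskeleton in HCs and muscle, was at 11.26 and 10.83 at 48 hrs and at 11.64 and 11.83 in controls. USH1C (harmonin), a scaffold of the tip link, was at 10.80 and 11.19 at 48 hrs and at 11.50 and 11.61 in controls. LHFPL5, a component of the transduction channel complex, was at 8.26 and 8.67 at 48 hrs and at 8.98 and 8.95 in controls. PTPRQ, XIRP2 and CLIC5, which act in the stereocilia and at their base, were the other lower genes. PTPRQ was at 7.99 and 8.08 at 48 hrs and at 8.12 and 9.25 in controls, so that its difference rested on the replicate 2 control. On the higher side ADGRV1, of the ankle links, was at 9.31 and 9.69 at 48 hrs and at 8.90 and 9.25 in controls. TPRN (taperin), of the stereocilia base, was at 8.32 and 8.76 at 48 hrs and at 7.87 and 8.25 in controls. MYO6 and MYO1H were the other higher ones. MYO1H was higher by 0.10 in the mean only, and the median over its probe sets was -0.0370.

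Among the genes of the HC synapse and channels, 3 (16.7%) of 18 were separate and higher and 2 (11.1%) lower, a split that turned to 3 and 4 with equal array medians. CACNA1D, the calcium channel of the HC synapse, was at 9.89 and 9.90 at 48 hrs and at 10.20 and 10.47 in controls. CABP1, a calcium sensor that modulates such channels, was at 11.32 and 11.63 at 48 hrs and at 11.63 and 11.69 in controls. Higher besides CALB2 were SNAP25 and STX1A of the membrane fusion machinery, which neurons express as well. SNAP25 was at 8.55 and 8.69 at 48 hrs and at 7.99 and 8.37 in controls, and the summed neuron markers of these arrays were 13.11 and 12.87 at 48 hrs and 12.51 and 13.15 in controls. CALB1, the calbindin of HCs, was at 13.16 and 13.25 at 48 hrs and at 13.22 and 13.28 in controls. OTOF (otoferlin), the calcium sensor of transmitter release, was at 9.48 and 8.51 at 48 hrs and at 9.48 and 8.22 in controls. In both genes the groups overlapped, and in OTOF the replicates differed by more than the groups. CHRNA9, a subunit of the HC acetylcholine receptor, whose mean was under the limit of 7, was at 6.66 and 6.66 at 48 hrs and at 7.81 and 7.48 in controls, whereas its partner CHRNA10 was at 8.22 and 8.29 at 48 hrs and at 8.14 and 8.47 in controls.

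**Figure D4:**
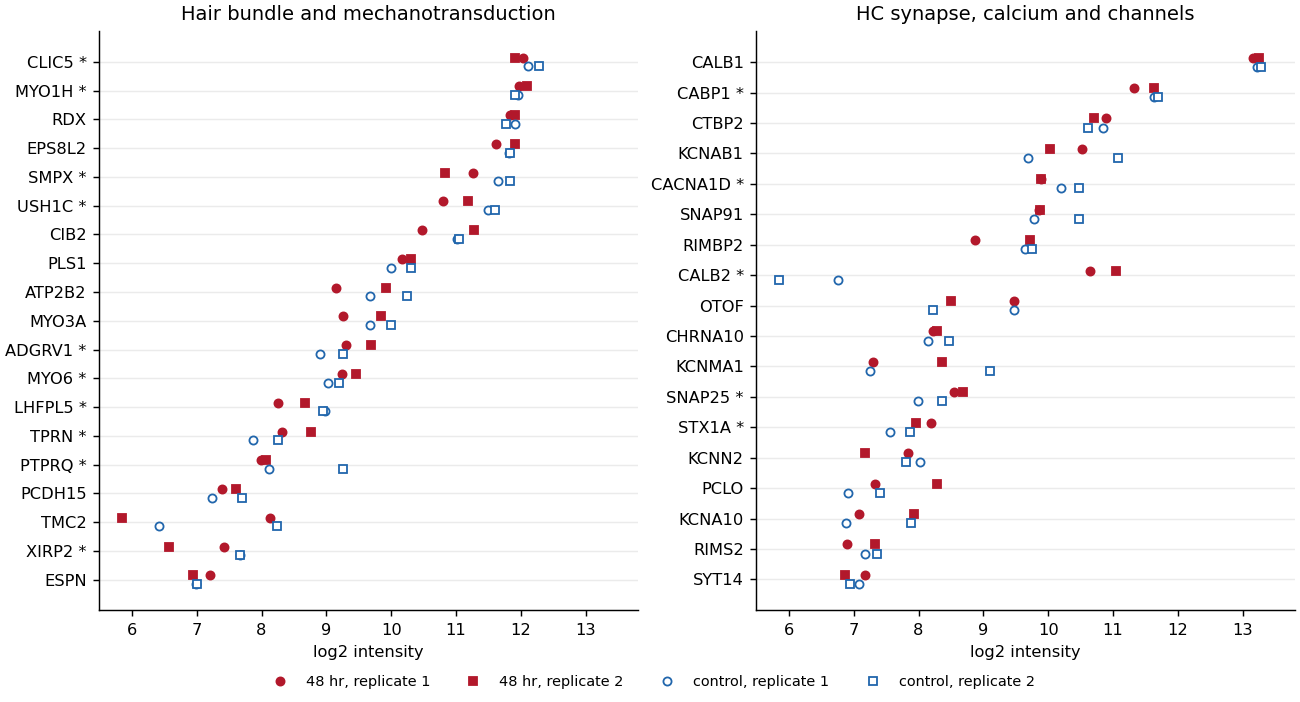
Log2 intensity (x axis) of HC genes over 7 on the 48 hr arrays (filled red) and control arrays (open blue), for hair bundle and mechanotransduction genes (left) and genes of the synapse, calcium and channels (right), with a star where the groups do not overlap. SMPX, USH1C and CACNA1D lie lower at 48 hrs, ADGRV1 and TPRN higher, and CALB2 stands apart at 10.65 and 11.05 against 6.76 and 5.85 in controls.

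SC genes were lower in 6 (26.1%) and higher in 2 (8.70%) of 23 genes over 7. The genes of the Notch list, which shares HES5, HEY1 and LFNG with them, were lower in 7 (31.8%) and higher in 3 (13.6%) of the 22. The 7 included NRIP2, described above as a nuclear receptor interacting protein. HEY1, another repressor downstream of Notch, was at 11.33 and 11.58 at 48 hrs and at 11.83 and 11.76 in controls. FGFR3, a growth factor receptor of SCs, was at 12.37 and 12.32 at 48 hrs and at 12.45 and 12.60 in controls. SOX2, a transcription factor of SCs and their progenitors, was at 6.82 and 6.94 at 48 hrs and at 6.96 and 7.89 in controls. Its difference rested on the replicate 2 control. Only this array and the 72 hr array of replicate 2 (8.34) were over 7 for SOX2. LFNG, which modifies Notch with sugars, was higher, at 11.84 and 12.19 at 48 hrs and at 11.70 and 11.67 in controls. The ligand DLL1 and the protease ADAM17, which cleaves Notch, were lower by 0.17 and 0.32 in the mean. HES6, a HES factor that HCs of the mouse express, was at 7.72 and 8.23 at 48 hrs and at 4.01 and 4.36 in controls (adjusted p = 0.19 from limma), and stood outside the 9319 with a mean of 6.94. HBEGF, an EGF family ligand, was likewise under the limit with a mean of 6.0, at 7.65 and 6.98 at 48 hrs and at 4.81 and 4.84 in controls.

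Among matrix genes, separate ones were lower more often than higher. Of 22 collagen genes over 7 (with the enzymes that modify them), 7 (31.8%) were separate and lower and 1 (4.55%) higher, with median log2 fold changes of -0.27 and -0.04. Of 13 genes of basement membranes 4 (30.8%) were lower and 0 higher, while most did not separate and their medians had opposite signs, -0.32 and 0.23. FN1, fibronectin, was at 7.08 and 8.39 at 48 hrs and at 8.97 and 9.08 in controls. COL4A2, a collagen of basement membranes, was at 8.11 and 7.51 at 48 hrs and at 8.96 and 8.21 in controls. LAMB1, a laminin chain, was at 8.50 and 8.58 at 48 hrs and at 9.23 and 9.19 in controls. LAMB1 was the most even of these, with log2 fold changes of -0.73 and -0.62. COL9A3, a collagen of cartilage and of the tectorial membrane, was at 9.01 and 8.99 at 48 hrs and at 9.60 and 9.51 in controls. COL9A1, its partner, was at 9.51 and 9.35 at 48 hrs and at 10.51 and 9.58 in controls.

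Markers of the tissue around the sensory epithelium were lower in replicate 1 as well. The summed cartilage markers were 13.004 and 12.84 at 48 hrs and 13.44 and 12.98 in controls, and 4 (44.4%) of the 9 over 7 were separate and lower, 3 of them collagens (COL2A1, COL9A1 and COL9A3) and the last HAPLN1, a link protein of matrix (9.61 and 9.82 at 48 hrs and 10.12 and 10.69 in controls). The mesenchyme markers summed to 12.37 and 12.30 at 48 hrs and to 13.10 and 11.98 in controls. DCN (decorin), a matrix gene of such cells just under the limit of 7, was at 7.11 and 7.78 at 48 hrs and at 10.09 and 4.84 in controls, which shows how far the control pools differed. For markers of the cells that line the cochlear duct outside the BP, the sums were lower without overlap. They were 11.86 and 11.64 at 48 hrs and 12.30 and 12.48 in controls. Of the 13 on the array, 2 (15.4%) were separate and lower at any level and 1 (7.69%) higher. Among all genes 13.4% were lower and 15.7% higher, so that the lower share was near the background. Of the 4 over 7, the same 2 were separate and lower, CLDN8 and ATP1B1. ATP1B1 had log2 fold changes of -0.10 and -1.14, so that its difference rested on replicate 2. CLDN8, a claudin of tight junctions, was at 10.67 and 10.60 at 48 hrs and at 11.25 and 11.60 in controls. The part of such tissue in the results was not tested.

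The cytoskeletal families held large single differences. Of the 21 cadherin, claudin and junction genes over 7, 0 passed the fold rule in both replicates. This is near the share of all genes, of which 0.539% were higher and 0.452% lower by the rule. The counts of separate genes in these families depended on the scaling. Of 52 genes of actin, myosins and annexins 7 (13.5%) were separate and higher and 5 (9.62%) lower (11 and 4 with quantile normalization), and of 33 tubulins and microtubule proteins 6 (18.2%) were higher and 4 (12.1%) lower, a lean that turned to 4 and 5 with equal array medians. ANXA2, an annexin that binds membranes and actin, was at 11.07 and 10.76 at 48 hrs and at 10.68 and 10.12 in controls. CLASP1, which stabilizes the ends of microtubules, was lower, at 10.10 and 9.61 at 48 hrs and at 10.43 and 10.35 in controls. Of 21 cadherin, claudin and junction genes 6 (28.6%) were higher and 3 (14.3%) lower, which turned to 1 and 4 with equal array medians. CLDN3 was at 11.40 and 11.21 at 48 hrs and at 10.96 and 10.86 in controls, opposite to CLDN8.

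**Figure D5:**
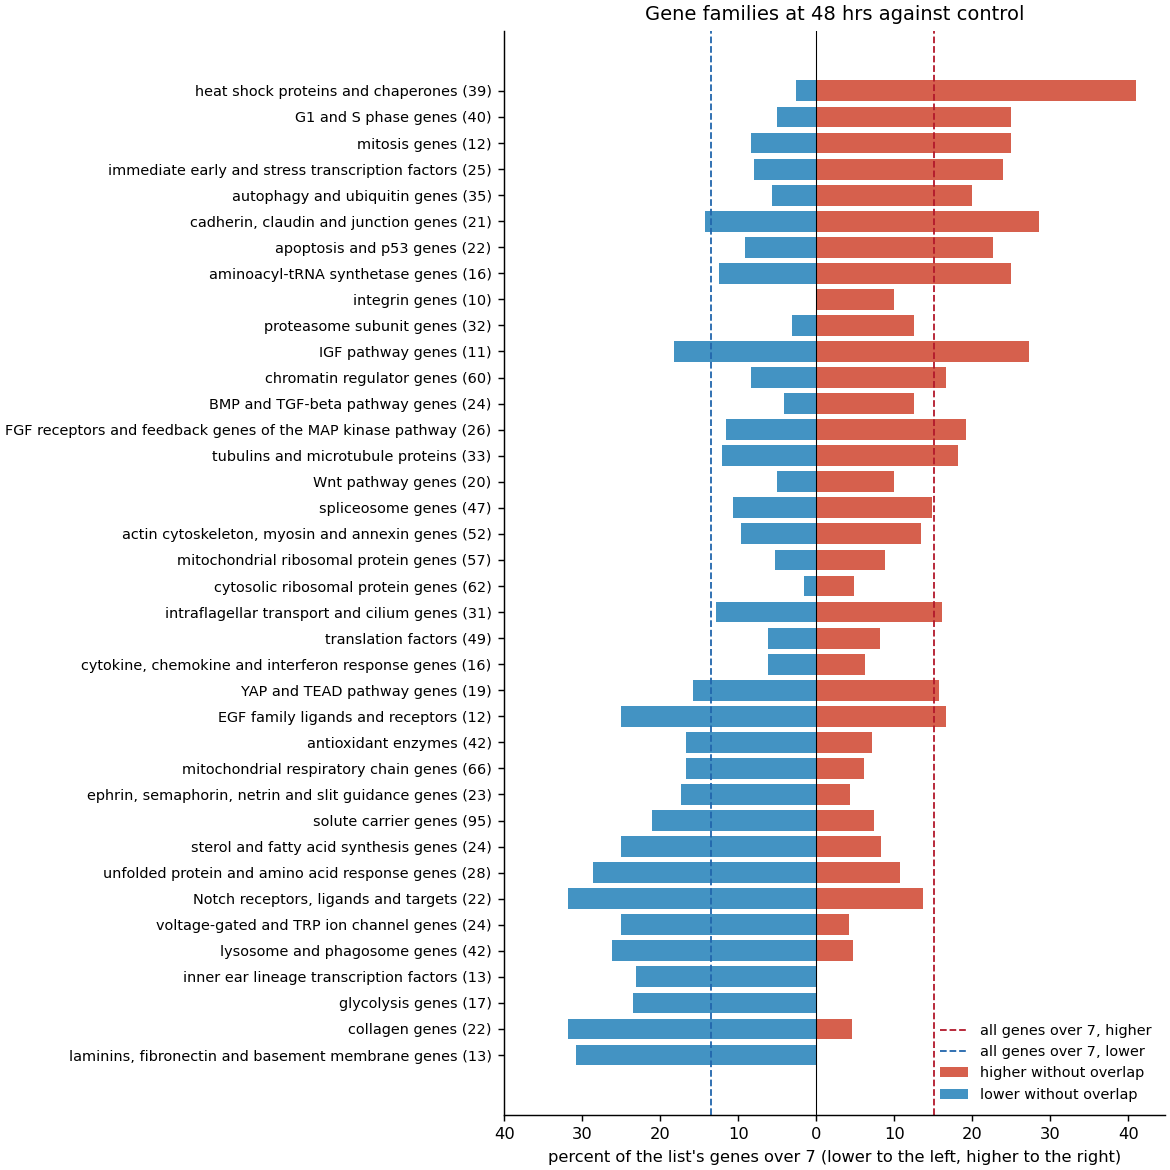
Percent of the genes over 7 of each family (number in brackets) that were separate at 48 hrs, lower to the left (blue bars) and higher to the right (red bars), with dashed lines at the 13.5% lower and 15.1% higher of all genes. Heat shock proteins and chaperones stand at the top with 41.0% higher, and basement membrane genes, with 30.8% lower and 0 higher, at the foot.

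The signalling families were close to the background in most cases. Of 26 FGF receptor and MAP kinase feedback genes 5 (19.2%) were higher and 3 (11.5%) lower. ETV5, a transcription factor that FGF signals induce, was at 8.85 and 9.09 at 48 hrs and at 8.41 and 8.67 in controls, and DUSP16, a phosphatase of MAP kinases, at 7.08 and 7.44 at 48 hrs and at 6.62 and 6.91 in controls. FGFR2 was at 8.68 and 10.14 at 48 hrs and at 9.45 and 8.94 in controls, so that the replicates went in opposite directions. Of 19 genes of the YAP and TEAD pathway 3 (15.8%) were higher and 3 (15.8%) lower. NUAK2, a kinase induced by YAP, was at 8.04 and 7.69 at 48 hrs and at 7.28 and 7.06 in controls. WISP1, of the same family as CYR61, was lower, at 10.02 and 9.66 at 48 hrs and at 10.19 and 10.37 in controls. MYC, a transcription factor of growth, was at 7.43 and 6.98 at 48 hrs and at 7.18 and 7.74 in controls. SEMA3C, a secreted semaphorin, was the 1 higher of 23 guidance genes, at 8.18 and 7.78 at 48 hrs and at 7.14 and 7.16 in controls, and 4 others were lower.

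Ribosomal protein genes were among the least separate, and other housekeeping families were near the background or depended on the scaling. Of 62 cytosolic ribosomal protein genes 3 (4.84%) were higher and 1 (1.61%) lower, which turned to 1 and 2 with equal array medians and to 8 and 0 with quantile normalization, and of 57 mitochondrial ribosomal protein genes 5 (8.77%) were higher and 3 (5.26%) lower, which turned to 3 and 4 and to 8 and 3. Of 32 proteasome genes 4 (12.5%) were higher and 1 (3.12%) lower. Of 16 aminoacyl-tRNA synthetase genes 4 (25%) were higher and 2 (12.5%) lower, which turned to 3 and 3 with equal array medians, and of 47 spliceosome genes 7 (14.9%) were higher and 5 (10.6%) lower, which turned to 8 and 11. GAPDH was at 12.52 and 12.19 at 48 hrs and at 12.50 and 12.51 in controls. Of 22 genes of apoptosis and p53, 5 (22.7%) were higher and 2 (9.09%) lower. TNFRSF1A, a receptor of tumor necrosis factor, was at 7.99 and 7.82 at 48 hrs and at 7.59 and 7.16 in controls, and CASP6, a caspase, at 8.85 and 8.87 at 48 hrs and at 8.67 and 8.46 in controls. Genes of cytokine, chemokine and interferon responses were rarely bright, with 16 of 80 over 7, and 1 of these was higher and 1 lower.

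At 72 hrs the levels of the leading genes differed from gene to gene. Both 72 hr values lay beyond both controls in 8 of the 15 leading higher genes and in 14 of the 15 lower ones. The mean at 72 hrs was closer to the controls than that at 48 hrs in 11 and 13 of them. The leading genes were chosen against these same controls, so that these counts are no separate support. The 72 hr arrays had 10.69 and 8.91 for CALB2 and 11.16 and 9.70 for EGR1, which places replicate 1 near its 48 hr level and replicate 2 under it. HSPB9 was at 9.93 and 7.91 at 72 hrs, against 11.25 and 10.64 at 48 hrs. On the 72 hr array of replicate 2 the 3′ to 5′ gaps were 5.03 for actin, 3.94 for EF1A and 4.58 for GAPDH. On that of replicate 1 they were 3.65, 1.59 and 2.05. The part of this in the lower levels of replicate 2 was not tested. CYR61 was at 8.28 and 8.70 at 72 hrs, against 7.56 and 7.68 at 48 hrs. HES5 was at 9.15 and 8.37 at 72 hrs, against 8.03 and 8.15 at 48 hrs. Between 72 and 48 hrs limma called 8 probe sets higher (0.0208%) and 11 lower (0.0287%) of 38382. The 8 higher were TOP2A, CENPW, CKAP2, FAM83D, RRM2, PBK, BUB1B and MKI67, all of DNA synthesis and cell division and 0 of them over 7, and of the 11 lower 9 belong to 6 genes of the W chromosome. None of the leading genes at 48 hrs was among these calls.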

How the data were processed

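RNA of 6 pools (2 each from 48 hrs after gentamicin, 72 hrs after gentamicin and untreated chicks) had been hybridized to the GeneChip Chicken Genome Array. The linear intensity values were used as deposited. The authors had made them before deposit: the submitters' notes name MAS5 (no version), and dChip is given in the methods for normalizing and summarizing. They were transformed to log2 with no further normalization, and 0 columns had no sample. The number of arrays limits the precision, and p-values measure the spread between pools, not chicks. Titles number the arrays 1 and 2, while the source names give both control and both 48 hr arrays the number 2. The titles were followed.

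All 38382 probe sets without the 153 control probe sets entered a linear model of all 6 arrays with 1 mean per group (limma 3.58.1, R 4.3.3, empirical Bayes with a trend, Benjamini-Hochberg adjustment). By the platform's annotation 27178 of 38535 probe sets have 1 symbol, 177 have several and 11180 have none. A gene was given by its brightest probe set. Named are the 15 genes per direction with the largest smaller replicate fold change among separate genes over 7, up to 4 separate genes a list, the HC genes and the genes with chick primers in the study. Further list members were named after their values were seen. From the 58 lists 3 names were removed that only resemble a family (SLC4A1AP, ITGB1BP3 and RPL7L1). Members and lists were chosen with earlier results of these data known.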

Additional observations from a re-analysis of the deposited data

How the results depend on the processing

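With 2 arrays a group, small differences could not be told from the spread between pools, and dim genes rest on values near background, so that the fold changes of genes with a group under log2 5 are imprecise. At 48 hrs limma called 0 probe sets under every alternative but 1: quantile normalization, equal array medians, no trend, the 4 arrays alone, the replicate block, the 9319 probe sets alone and each array left out in turn (0 to 0). A floor of 32 gave 5 calls (a dim probe set of TXN2, RMND1, NUFIP1, PHYKPL and 1 without a symbol) with 632 unadjusted p under 0.05. With the replicate block 1590 had an unadjusted p under 0.05, against 1039 without it, and the numbered arrays shared deviations from their group means (r = 0.44 between 48 hr and control arrays), but the labels say nothing of a shared batch and disagree on the numbers. The block changed no call at 48 hrs. The 19 calls of 72 against 48 hrs became 28 with the replicate block, 24 with equal array medians, 19 with quantile normalization, 3 with a floor of 32, 3 within the 9319, 0 without a trend and between 0 (without the 72 hr replicate 2) and 5 (without the 48 hr replicate 1) with 1 array left out. Leaving out a 72 hr array was chosen after seeing the data.

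The fold rule in both replicates gave 85 higher and 85 lower probe sets over a mean of 6, and 25 and 26 over 8. It needs both pairs, so that no array was left out. With a mean over 6, 16 genes of G1 and S phase were higher, and over 8, 4 of 25 (16%) were, against 14.7% of all genes. Quantile normalization left 5 of 28 (17.9%) lower genes of the unfolded protein and amino acid responses, against 12.9% of all genes. Fewer arrays make separation easier by construction. With 1 of the 4 arrays left out, 2912 to 3152 probe sets were separate and higher and 2759 to 3246 lower (31.2% to 34.7% and 27.2% to 35.5% of genes). The counts were then 19 to 28 higher for heat shock proteins and chaperones, 7 to 13 for immediate early and stress factors, 16 to 22 for G1 and S phase, and 19 to 23 lower for lysosome genes, 12 to 14 for the unfolded protein responses, 6 to 10 for the hair bundle, 9 to 12 for collagens and 33 to 49 for solute carriers. With equal array medians 12.2% of genes were separate and higher and 15.5% lower, against 15.1% and 13.5%. Of 1955 fold changes of 218 named genes under the alternatives, 17 were counted as moved by more than the spread between arrays. For separate genes such moves were counted only with the median over probe sets. For the others, leaving out 1 array cannot move the fold change beyond this limit, and the replicate block leaves it unchanged. The count of 17 is therefore no measure of stability. Sign changes were counted only for the 190 named genes that were separate. Of their 1706 values 2 changed sign, both with the median over probe sets (MBP -0.0372 and MYO1H -0.0370). In a separate gene neither leaving out 1 of the 4 arrays nor the replicate block can change the sign. Those values are among the 1706 and could not test the direction. The causes were not tested.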

Other observations

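Macrophage genes were dim on these arrays, and most lay under the limit of 7. Of 28 on the array, 11 (39.3%) were separate and higher at 48 hrs and 3 (10.7%) lower at any level, against 15.7% higher and 13.4% lower of all 13008 genes. CD44, an adhesion receptor that many cell types express, was at 5.97 and 6.35 at 48 hrs and at 5.30 and 4.26 in controls. CD83, a surface protein of activated immune cells, was at 4.53 and 4.75 at 48 hrs and at 3.50 and 3.74 in controls. NCF4, a subunit of the phagocyte oxidase, was one of the 3 lower ones, at 6.90 and 5.0 on the 48 hr arrays and at 8.91 and 8.65 on the control arrays (log2). The sums of the list were 10.22 and 10.04 at 48 hrs and 10.61 and 10.33 in controls.

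Male birds carry a pair of the Z chromosome and females a single copy. Of 283 Z chromosome genes over 7, 48 (17%) were separate and higher at 48 hrs and 14 (4.95%) separate and lower. Against 15.1% and 13.5% of all genes, the higher share was near the background and the lower share was under it. Their median log2 fold changes had opposite signs, 0.21 in replicate 1 and -0.10 in replicate 2. Those of the 5 W chromosome genes over 7 were -0.41 and 0.14. The part of the sex of the pooled chicks in this was not tested. HINTW, a gene of the female W chromosome, was at 10.79 and 11.60 at 48 hrs and at 11.51 and 11.09 in controls. At 72 hrs it was at 3.93 and 3.72.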
